A study of Mus musculus with 6 samples.

Results

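The 10 genes described here carry fatty acids from circulating lipoproteins into cells. They are *Lpl*, *Gpihbp1* and *Angptl4* of lipoprotein lipolysis, *Cd36*, *Slc27a1*, *Slc27a3* and *Slc27a4* of fatty acid uptake, the lipoprotein receptor gene *Vldlr*, and *Fabp4* and *Fabp5*, which encode intracellular fatty acid carriers. They were chosen by name from the 56980 genes of the counts table, with their changes in these same samples already known, so their fold changes are given as a description, without p-values. All 10 genes passed the filter on low counts, which left 15190 genes.

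RNA-Seq was run on 3 TranspCtrl and 3 TranspExer samples of mouse bone marrow (BM) cells, cultured for 7 days and labelled MSCs, the adherent stromal cells that can form osteoblasts and adipocytes. All mice of both groups underwent OVX (ovariectomy, removal of the ovaries) at 8 weeks of age, received antibiotics to deplete their own gut microbiota, and were then gavaged with donor feces for 8 weeks (fecal microbiota transplantation, FMT). The donors were sedentary OVX mice for TranspCtrl and OVX mice exercised for 8 weeks for TranspExer. The cells were enriched by adherence and washing, with no sorting step described, and the labels do not say whether each sample was 1 mouse or 1 culture, so the spread between samples may be partly technical.

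Lipoprotein lipase (LPL) hydrolyses the triglycerides of chylomicrons and VLDL at the luminal surface of capillaries, where GPIHBP1 anchors it on endothelial cells and ANGPTL4 inactivates it. The released fatty acids enter cells with the help of CD36 and of fatty acid transport proteins of the SLC27A family, which also activate them to acyl-CoA, while the VLDL receptor binds the lipoprotein particles themselves. Inside the cell, fatty acid binding proteins such as FABP4 and FABP5 carry fatty acids between membranes, lipid droplets, mitochondria and the nucleus. Macrophages, adipocytes and capillary endothelial cells are known for high levels of many of these genes.

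Levels are given as CPM, the counts of a gene relative to the library's total count after scaling by TMM factors, and a fold change is the TranspExer level over the TranspCtrl level. *Cd36* and *Lpl* were 4.12-fold and 3.30-fold higher in TranspExer, whereas *Vldlr* and *Slc27a3* were 2.44-fold and 2.35-fold higher in TranspCtrl. These 4 genes were the members past both thresholds of the study, 0.05 for the Benjamini-Hochberg adjusted p-value and 2 for the absolute fold change, applied here to edgeR's quasi-likelihood test, with 2 members in each direction. Among all 15190 genes, 3.5% were past both thresholds and higher in TranspExer and 5.28% past both and lower. At the adjusted p-value alone, 6 members were higher and 2 lower, beside 16.6% and 15.5% of all genes. Every TranspExer sample lay above every TranspCtrl sample for 6 members and below for 2, beside 27.2% and 25.1% of all genes, and the groups overlapped for *Fabp5* and *Slc27a4*. The median log2 fold change was 0.59 over the 10 members and -0.02 over all genes tested. Since the members were chosen with this contrast known, nothing is read from these counts.

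**Figure D1:**
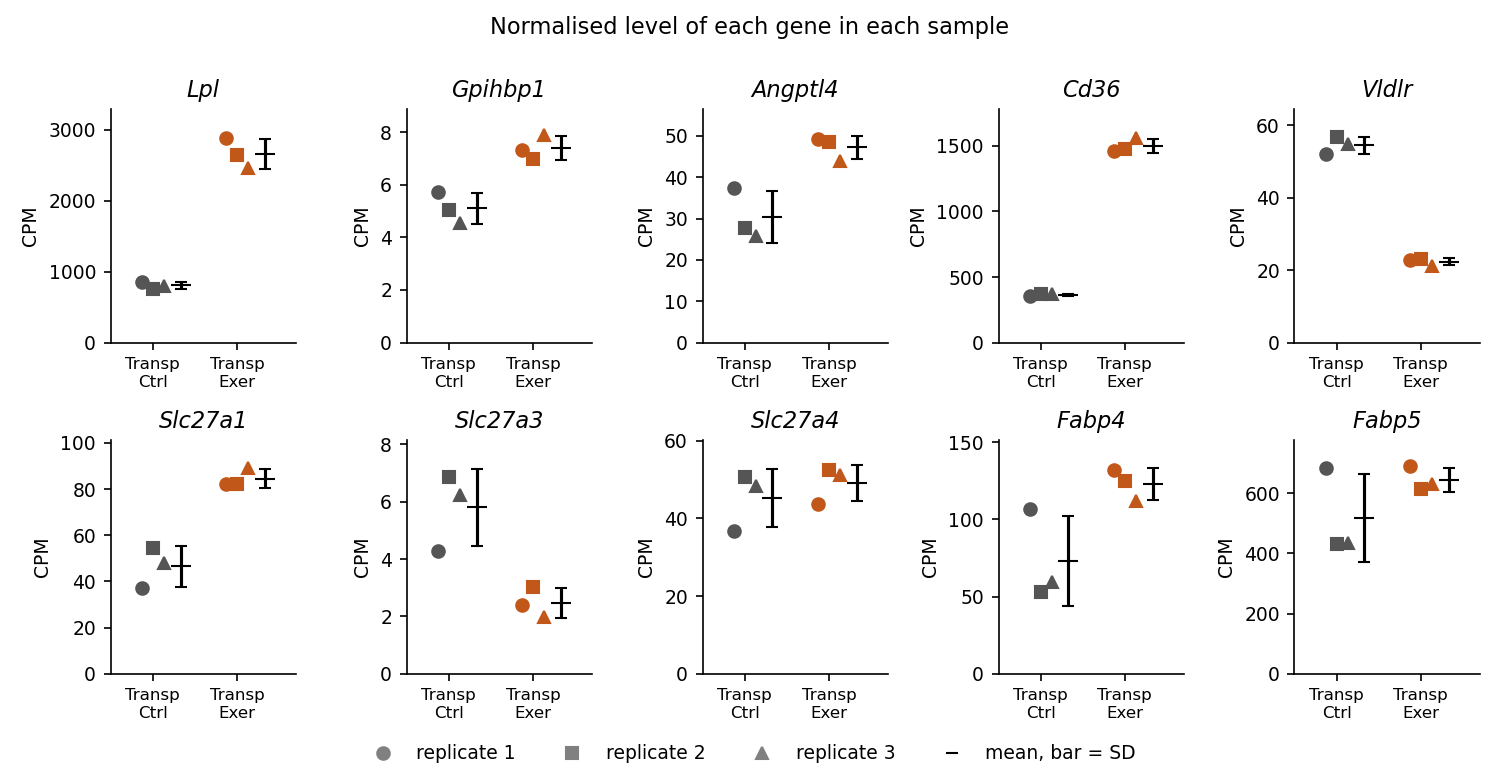
CPM of each of the 10 genes (vertical axes, each from 0) in the 3 TranspCtrl samples (grey) and the 3 TranspExer samples (orange), with the mean and SD beside the points. *Lpl*, *Cd36* and *Slc27a1* lie higher in every TranspExer sample and *Vldlr* and *Slc27a3* lower, while *Fabp5* and *Slc27a4* overlap between groups.

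The samples held 17647638 to 21319166 counts, at which 3 counts, the floor used here, equalled 0.139 to 0.174 CPM, for counting error only. TranspCtrl replicate 1 stood apart from the other TranspCtrl samples in several members, being the highest of the 3 in 5 members and the lowest in the other 5. Results that rest on it are given with and without this sample. Beside marrow stromal markers, which summed to 6490 to 12200 CPM in TranspCtrl and 8580 to 9520 CPM in TranspExer, macrophage markers were measured at 3040 to 3200 and 3340 to 3510 CPM. Because RNA was measured in bulk, a change in the number of cells of a type and a change in RNA per cell cannot be told apart for any gene below.

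Sequences upstream of the start site were available in the RefSeq table (GRCm38.p6) for 5 of the 10 members. Those of *Cd36*, *Vldlr* (the first of its listed starts) and *Slc27a3* are shown, because these genes were past both thresholds and differed in opposite directions. *Lpl* was not in the table. Each runs 5′ to 3′ on the gene's own strand and ends 1 base before the RefSeq start, over 250 bases, with motif matches in capitals.
*Cd36*, chr5:17835897-17836146, minus strand: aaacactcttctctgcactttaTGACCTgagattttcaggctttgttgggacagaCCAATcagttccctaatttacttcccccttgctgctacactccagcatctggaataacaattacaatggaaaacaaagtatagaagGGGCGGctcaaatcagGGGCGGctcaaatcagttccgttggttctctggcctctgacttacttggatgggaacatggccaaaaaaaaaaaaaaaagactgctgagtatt
*Vldlr*, chr19:27216234-27216483, plus strand: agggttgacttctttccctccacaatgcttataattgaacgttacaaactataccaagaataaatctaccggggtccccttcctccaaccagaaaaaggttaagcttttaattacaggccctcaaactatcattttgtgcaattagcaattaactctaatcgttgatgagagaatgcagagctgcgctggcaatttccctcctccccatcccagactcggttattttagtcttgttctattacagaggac
*Slc27a3*, chr3:90389939-90390188, minus strand: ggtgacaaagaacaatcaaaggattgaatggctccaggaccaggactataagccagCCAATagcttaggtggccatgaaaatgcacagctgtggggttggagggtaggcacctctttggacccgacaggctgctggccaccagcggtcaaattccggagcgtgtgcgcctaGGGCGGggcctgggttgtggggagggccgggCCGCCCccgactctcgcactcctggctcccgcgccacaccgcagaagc

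Motifs were searched on both strands and do not overlap in the sequences shown. Among 32851 mouse promoter sequences of the same length, the letters AGGTCA, which nuclear receptors bind, were held by 14.0% and the letters of the TATA box (spelled TATAAA) by 12.4%. The letters GGGCGG of the GC box were held by 32.7%, the CCAAT box by 33.8%, and the E-box with the letters CACGTG by 6.02%. The *Cd36* sequence held the nuclear receptor element on the opposite strand 228 bases before the start, a CCAAT box 195 bases before it and GC boxes 109 and 93 bases before it. The GC boxes stand in a repeat of the same letters. The *Slc27a3* sequence held a CCAAT box 194 bases before the start and GC boxes 79 and 48 bases before it. None of the 5 motifs was found in the *Vldlr* sequence shown, and its second listed start, inside the gene, had a CCAAT box 78 bases and a GC box 42 bases before it. GC content was 43.2% for *Cd36*, 41.6% for *Vldlr* and 62.4% for *Slc27a3*, beside a median of 52.4% over all promoters. A match describes letters only, and binding was not measured here. The GENCODE M21 transcripts did not hold the RefSeq start of *Cd36*.

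*Lpl* (ENSMUSG00000015568, chr8:68880491-68907448, plus strand, GRCm38) encodes the lipase itself. Its level was 857, 762 and 800 CPM in TranspCtrl replicates 1, 2 and 3 and 2885, 2638 and 2465 CPM in TranspExer replicates 1, 2 and 3. The lowest TranspExer sample was thus far above the highest TranspCtrl sample. The mean went from 806 ± 48.0 to 2663 ± 211 CPM (SD, n = 3 each), with a log2 fold change of 1.72 (standard error 0.10). Left-out samples and the other settings moved this change between 1.63 and 1.77. Of the 6 deposited *Lpl* values, 4 were not whole numbers, and 3.98% of the 50-base runs of its longest coding transcript also occurred in other genes.

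*Gpihbp1* (ENSMUSG00000022579, chr15:75596628-75599481, plus strand), the endothelial anchor of LPL, was low. Its level was 5.71, 5.03 and 4.56 CPM in the TranspCtrl samples (117, 98 and 98 counts) and 7.32, 6.97 and 7.90 CPM in the TranspExer samples (140, 120 and 159 counts). The groups did not overlap, and the mean went from 5.10 ± 0.581 to 7.40 ± 0.467 CPM (SD, n = 3 each), a log2 fold change of 0.54 (standard error 0.14), below the fold threshold. It was past the adjusted p-value with all 6 samples, but missed it when any sample other than TranspCtrl replicate 1 was left out.

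*Angptl4* (ENSMUSG00000002289, chr17:33773750-33781830, minus strand), whose product inactivates LPL, was at 37.5, 27.7 and 25.7 CPM in TranspCtrl and 49.2, 48.4 and 44.0 CPM in TranspExer. TranspCtrl replicate 1 was the closest of its group to TranspExer, and no sample crossed. The mean went from 30.3 ± 6.29 to 47.2 ± 2.84 CPM (SD, n = 3 each), a log2 fold change of 0.64 (standard error 0.14), or 0.82 (standard error 0.08) without TranspCtrl replicate 1. It missed the adjusted p-value without TranspExer replicate 1 or 2.

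The genes of the lipase and of its anchor and inhibitor were therefore higher in TranspExer by unequal amounts. Per kilobase of the longest coding transcript, the ratio of *Lpl* to *Gpihbp1* was 60.2, 60.8 and 70.5 in TranspCtrl and 158, 152 and 125 in TranspExer. The ratio of *Lpl* to *Angptl4* was 18.4, 22.1 and 25.0 in TranspCtrl and 47.1, 43.8 and 45.1 in TranspExer. Neither ratio overlapped between groups, as a description of members chosen on this contrast. The size of a ratio depends on the lengths used. Between group means, *Lpl* over *Angptl4* was 9 in TranspCtrl and 19.1 in TranspExer with the summed length of all exons, and 46.4 and 98.2 with the deposited lengths. *Lpl* over *Gpihbp1* was 38.5 and 87.7 with the summed exons.

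*Cd36* (ENSMUSG00000002944, chr5:17781690-17888801, minus strand) encodes the scavenger receptor that promotes long-chain fatty acid uptake and also takes up oxidised LDL. Its level was 353, 369 and 369 CPM in TranspCtrl and 1461, 1475 and 1559 CPM in TranspExer. Samples of each group lay close together, with a coefficient of variation of 2.61% in TranspCtrl and 3.55% in TranspExer. The mean went from 364 ± 9.50 to 1498 ± 53.2 CPM (SD, n = 3 each), with a log2 fold change of 2.04 (standard error 0.08). This was the largest change among the members, at percentile 99.5 of the log2 fold changes of all genes tested, and it was between 1.96 and 2.06 under the settings tried.

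The transport proteins of the SLC27A family, which couple uptake to acyl-CoA formation, differed in direction. *Slc27a1* (FATP1, ENSMUSG00000031808, chr8:71568882-71587302, plus strand) was at 37.0, 54.3 and 48.1 CPM in TranspCtrl and 82.2, 82.0 and 89.3 CPM in TranspExer, without overlap. Its log2 fold change was 0.86 (standard error 0.13), from a mean of 46.5 ± 8.76 to 84.5 ± 4.17 CPM (SD, n = 3 each), and 5 of its 6 deposited values were not whole.

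*Slc27a3* (FATP3, ENSMUSG00000027932, chr3:90385239-90389938, minus strand) went the other way, at 4.30, 6.88 and 6.23 CPM in TranspCtrl and 2.41, 3.02 and 1.99 CPM in TranspExer. These levels rest on 88, 134 and 134 counts and on 46, 52 and 40 counts. The mean went from 5.80 ± 1.34 to 2.47 ± 0.521 CPM (SD, n = 3 each), a log2 fold change of -1.24 (standard error 0.24), and the call was lost when a fold of 2 was itself the tested hypothesis.

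*Slc27a4* (FATP4, ENSMUSG00000059316, chr2:29802634-29817522, plus strand) overlapped between groups, at 36.7, 50.7 and 48.3 CPM in TranspCtrl and 43.7, 52.4 and 51.2 CPM in TranspExer. Its log2 fold change was 0.12 (standard error 0.13), and -0.012 (standard error 0.08) without TranspCtrl replicate 1. Of the summed level per kilobase of the 3 genes, *Slc27a1* held 54.0% to 55.6% in the TranspCtrl samples and 67.3% to 71.3% in the TranspExer samples. The share of *Slc27a3* was 7.86% to 8.71% and 1.94% to 3.07%, and that of *Slc27a4* 35.7% to 37.4% and 26.1% to 29.7%. With the summed length of all exons, *Slc27a4* held the most in TranspCtrl, 50.1% of the group means beside 38.9% for *Slc27a1*, and *Slc27a1* the most in TranspExer, 54.5% beside 41.9%. In these shares TranspCtrl replicate 1 lay with its group, although it was the lowest TranspCtrl sample for each of the 3 genes in CPM.

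*Vldlr* (ENSMUSG00000024924, chr19:27216484-27254231, plus strand) encodes the VLDL receptor, which binds apolipoprotein E-containing particles and also reelin. Its level was 52.0, 56.7 and 54.7 CPM in TranspCtrl and 22.8, 23.0 and 21.2 CPM in TranspExer. All TranspExer samples lay below every TranspCtrl sample, and the mean went from 54.5 ± 2.37 to 22.3 ± 0.984 CPM (SD, n = 3 each), a log2 fold change of -1.29 (standard error 0.08). The settings tried moved this between -1.37 and -1.26. The ratio of *Cd36* to *Vldlr* per kilobase was 15.9, 15.3 and 15.8 in TranspCtrl and 151, 151 and 173 in TranspExer.

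**Figure D2:**
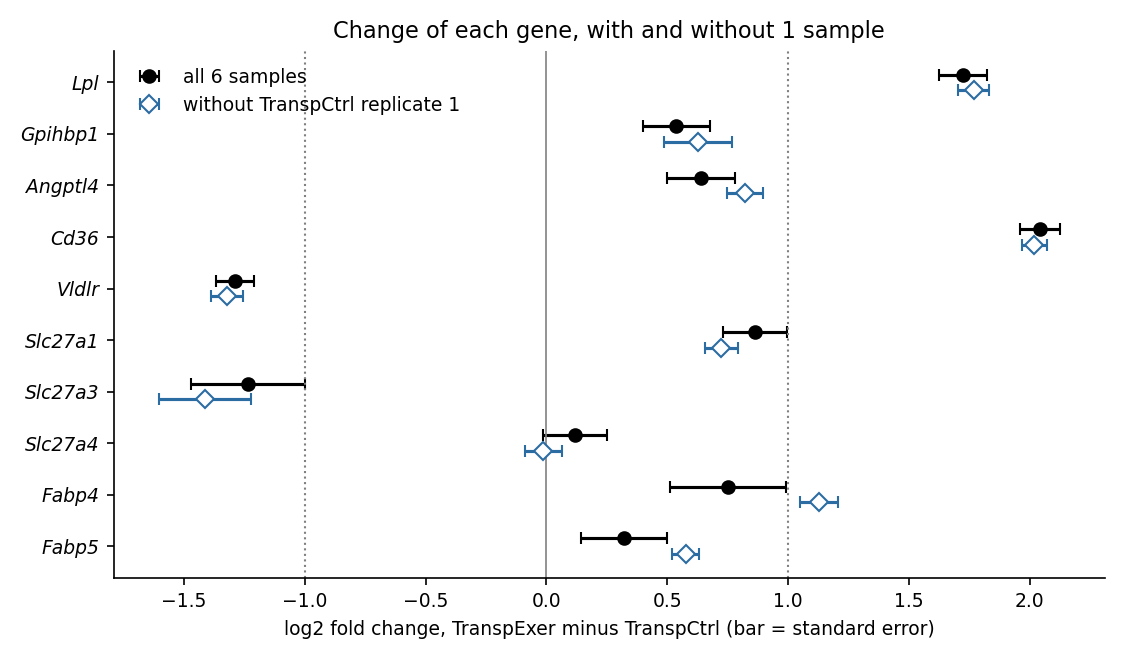
Log2 fold change of each gene, TranspExer minus TranspCtrl (horizontal axis), with all 6 samples (filled circles) and without TranspCtrl replicate 1 (open diamonds). Bars are standard errors, the solid line is no change and the dotted lines mark a fold change of 2. *Fabp4* moves from 0.75 to 1.13 without that sample, while *Cd36*, *Lpl* and *Vldlr* stay beyond the dotted lines.

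*Fabp4* (ENSMUSG00000062515, chr3:10204088-10208576, minus strand) encodes the fatty acid carrier of adipocytes, macrophages and capillary endothelium. Its level was 107, 52.9 and 59.3 CPM in TranspCtrl and 132, 125 and 112 CPM in TranspExer. TranspCtrl replicate 1 was 2.02 times as high as the lowest TranspCtrl sample and nearly reached the TranspExer samples. The mean went from 72.9 ± 29.3 to 123 ± 10.1 CPM (SD, n = 3 each), a log2 fold change of 0.75 (standard error 0.24). Without TranspCtrl replicate 1 the change was 1.13 (standard error 0.08), which took *Fabp4* past both thresholds, whereas it missed the adjusted p-value when any other sample was left out.

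*Fabp5* (ENSMUSG00000027533, chr3:10012548-10016607, plus strand) encodes the epidermal-type carrier, which macrophages also use. Its level was 685, 432 and 433 CPM in TranspCtrl and 689, 613 and 632 CPM in TranspExer. TranspCtrl replicate 1 lay among the TranspExer samples, and the log2 fold change was 0.32 (standard error 0.18) with it and 0.58 (standard error 0.06) without it, where it was past the adjusted p-value. Of the 50-base runs of its longest coding transcript, 21.1% also occurred in 5 annotated copies, each of which was listed with at most 5 counts in any sample. The ratio of *Fabp5* to *Fabp4* per kilobase was 5.83, 7.41 and 6.63 in TranspCtrl and 4.74, 4.47 and 5.13 in TranspExer.

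Summed over the 10 genes, the level was 2170, 1820 and 1850 CPM in TranspCtrl and 5370, 5070 and 4980 CPM in TranspExer. *Cd36* and *Lpl* made up 55.6%, 62.2% and 63.2% of this sum in TranspCtrl and 80.9%, 81.2% and 80.8% in TranspExer, so most of the difference in the sum lay in these genes.

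Levels of different genes were compared per kilobase of the longest coding transcript (CPM per kilobase). In TranspCtrl the means ran from *Fabp5* at 523 through *Lpl* at 196, *Cd36* at 107, *Fabp4* at 81.4, *Slc27a1* at 16.6, *Slc27a4* at 11.2, *Angptl4* at 9.15, *Vldlr* at 6.83 and *Gpihbp1* at 3.09 to *Slc27a3* at 2.57. Neighbours whose samples overlapped were *Cd36* and *Fabp4*, *Slc27a4* and *Angptl4*, and *Gpihbp1* and *Slc27a3*. In TranspExer the order was *Fabp5* at 653, *Lpl* at 647, *Cd36* at 441, *Fabp4* at 137, *Slc27a1* at 30.2, *Angptl4* at 14.3, *Slc27a4* at 12.1, *Gpihbp1* at 4.48, *Vldlr* at 2.80 and *Slc27a3* at 1.09, and only *Fabp5* and *Lpl* overlapped. This order depended on the length used. With the length column of the deposited table, *Lpl* in TranspExer was at 1401, above *Fabp5*, and with the summed length of all exons *Cd36* came first at 417, before *Lpl* at 254 and *Fabp5* at 181. With the longest transcript of any type, *Fabp5* was at 160 in TranspCtrl, below *Lpl*, and at 199 in TranspExer, below *Lpl* and *Cd36*. With summed exons in TranspCtrl, *Cd36* at 101 came before *Lpl* at 76.9, *Slc27a1* at 7.96 came after *Slc27a4* at 10.3 and *Angptl4* at 8.55, and *Slc27a3* at 2.26 before *Gpihbp1* at 2.00.

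**Figure D3:**
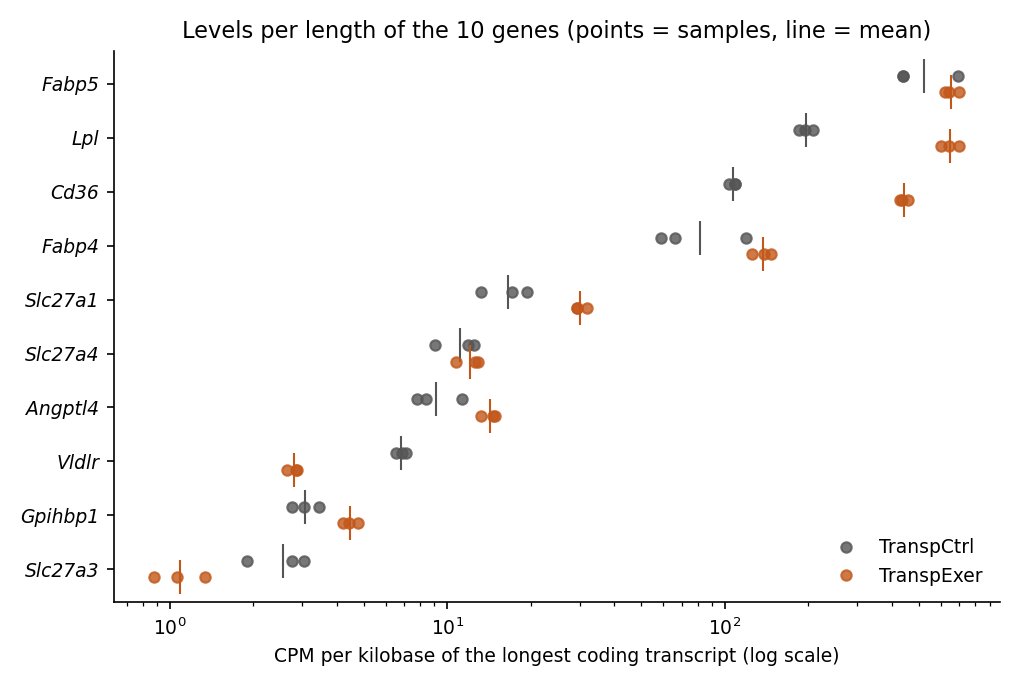
CPM per kilobase of the longest coding transcript (horizontal log axis) for the 10 genes, ordered by the TranspCtrl mean, in TranspCtrl (grey) and TranspExer (orange). Points are samples and vertical lines are means. *Fabp5*, *Lpl*, *Cd36* and *Fabp4* form the upper range in both groups, and *Vldlr* falls below *Gpihbp1* in TranspExer.

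For 4 members, the tested genes of at least 10 CPM with the most similar profile over the 6 samples were found by the root mean square distance of log2 CPM after each gene's mean was subtracted. For *Lpl* these were *Prtn3*, a serine protease of neutrophil granules, *Plin2*, which coats lipid droplets, and *Gdf3*, at distances of 0.05, 0.08 and 0.09. For *Cd36* they were *Il7r*, the receptor for interleukin-7, *Vwa1*, an extracellular matrix gene, and *Prss57*, a neutrophil serine protease, at 0.05, 0.08 and 0.10. For *Gpihbp1* they were *Slc8b1*, *Ptpre* and *Adgrf5* at 0.05, 0.05 and 0.06, and for *Fabp4* *Fcna*, *Mmp27* and *Tnfsf13* at 0.06, 0.11 and 0.12. Likeness over 6 samples in 2 groups mostly reflects the size of the group difference.

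Other genes of the pathway were taken from 8 lists with 106 genes, none of them a member, of which 83 were tested. Past both thresholds, 5 of the 83 rose and 2 fell in TranspExer, beside 3.5% and 5.28% of all genes. At the adjusted p-value alone 31 of the 83 rose and 8 fell, beside 16.6% and 15.5% of all genes. With 1 sample left out in turn, 21 to 33 rose and 4 to 10 fell, the lowest counts being those without TranspExer replicate 2 or 3, and under library-size scaling 26 rose and 11 fell. The median log2 fold change of the 83 genes was 0.17. Of the 5 that rose, *Lipa* and *Sort1* act in lysosomal and receptor-linked lipid handling, *Pparg* and *Nr1h3* are nuclear receptors, and *Fabp7* is a fatty acid carrier. Adjusted p-values below come from the same edgeR test and were adjusted over all 15190 genes. The same shares of all genes stand beside the counts of every list below.

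Among 17 genes that regulate LPL or encode related lipases and apolipoproteins, 10 were tested, 1 rose and 1 fell at the adjusted p-value, and the median was 0.12. *Lipa*, the lysosomal acid lipase that hydrolyses lipoprotein lipids after endocytosis, was at 371, 392 and 378 CPM in TranspCtrl and 907, 935 and 966 CPM in TranspExer. The log2 fold change was 1.30 (standard error 0.08, adjusted p = 4.96e-05 from edgeR). *Apoc2*, the cofactor that activates LPL, fell by 0.79 on the log2 scale (standard error 0.18, adjusted p = 0.0128 from edgeR), from 13.3 to 7.66 CPM, but it missed the adjusted p-value without TranspExer replicate 2 or 3. *Lmf1*, needed for folding of LPL, was at 20.3 and 21.9 CPM (adjusted p = 0.482). *Apoe*, the most abundant gene of the list, was at 11800, 6550 and 6610 CPM in TranspCtrl and 7000, 7310 and 5760 CPM in TranspExer, with TranspCtrl replicate 1 above all others (adjusted p = 0.332).

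Of 11 tested lipoprotein receptors and related genes, 7 rose at the adjusted p-value, or 4 without TranspExer replicate 2 or 3, with a median of 0.48. *Sort1*, a sorting receptor that binds LPL and apolipoproteins, rose from 94.1 ± 6.36 to 197 ± 10.6 CPM (SD, n = 3 each), a log2 fold change of 1.06 (adjusted p = 0.000136). It fell short of the fold threshold under upper-quartile and library-size scaling. *Scarb1*, the receptor for HDL, rose by 0.86 (adjusted p = 0.00243) and *Lrp1* by 0.48 (adjusted p = 0.0161) on the log2 scale, the latter call being lost without TranspExer replicate 2 or 3. *Vldlr* was thus lower in TranspExer while these receptors were higher.

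Among 12 tested genes that work with CD36 or in fatty acid passage across endothelium, 6 rose and 1 fell at the adjusted p-value, with a median of 0.47. The caveolar genes *Cav1* and *Cav2* rose by 0.51 and 0.65 on the log2 scale (adjusted p = 0.00992 and 0.00363), and *Lyn*, a kinase that binds CD36, rose by 0.54 (adjusted p = 0.0164), a call lost when any TranspExer sample was left out. *Mfsd2a*, a transporter of lysophosphatidylcholine, fell by 1.60 (standard error 0.31, adjusted p = 0.0066), from 28, 38 and 30 to 9, 7 and 13 counts. Of the other fatty acid binding proteins only *Fabp7* and *Fabp3* were tested, at low levels. *Fabp7*, the brain type, rose from 35, 24 and 50 to 107, 101 and 97 counts, a log2 fold change of 1.62 (adjusted p = 0.00202). *Fabp3*, the heart type, fell from 35, 22 and 16 to 12, 5 and 9 counts, a log2 fold change of -1.36 (adjusted p = 0.0416), a call that was lost when any sample other than TranspCtrl replicate 3 was left out.

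Of 10 tested regulators of lipid genes, 4 rose at the adjusted p-value, with a median of 0.24. *Pparg*, known to regulate several of the members, was at 22.9, 19.0 and 20.5 CPM in TranspCtrl and 52.1, 52.5 and 50.2 CPM in TranspExer. The groups did not overlap, and the log2 fold change was 1.31 (standard error 0.09, adjusted p = 7.65e-05 from edgeR). The part of *Pparg* in the members' changes was not tested. *Nr1h3*, the liver X receptor alpha, rose from 16.7 ± 1.22 to 43.7 ± 2.04 CPM (SD, n = 3 each), a log2 fold change of 1.39 (adjusted p = 6.19e-05). *Rxra*, the partner of both, rose by 0.57 (adjusted p = 0.00451), and *Cebpa* rose by 0.8 on the log2 scale (adjusted p = 0.013). By RT-qPCR, the paper reports *Pparg*, *Cebpa*, *Fabp4* and *Lpl* as lower in TranspExer MSCs, opposite in direction to the counts here.

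Genes acting after uptake were covered by the remaining lists. Of 7 tested acyl-CoA synthetases, 1 rose and 1 fell at the adjusted p-value and none was past both thresholds. *Acsl5* rose by 0.38 on the log2 scale (adjusted p = 0.00626), *Acsl3* fell by 0.85 (adjusted p = 0.00068), and *Acsl1* was at 50.1 and 56.2 CPM (adjusted p = 0.0964). Of 21 beta oxidation genes, 6 rose and 3 fell at the adjusted p-value, none passed the fold threshold as well, and the median was 0.00172. This balance turned with the scaling, as 3 rose and 5 fell under library-size scaling and 4 rose and 5 fell under upper-quartile scaling. Without 1 of the TranspExer samples, 2 or 3 rose and 1 fell, and without TranspCtrl replicate 2 or 3, 4 rose and 1 fell. *Cpt1a*, which admits fatty acids to mitochondria, rose by 0.70 (adjusted p = 0.000412), *Acadm* fell by 0.50 (adjusted p = 0.0024), and *Hadha* was at 142 and 143 CPM (adjusted p = 0.986). Of 10 tested esterification genes, 5 rose, or 3 when any TranspExer sample was left out, and 1 fell at the adjusted p-value, none was past both thresholds, and the median was 0.18. *Agpat1* rose by 0.71 (adjusted p = 0.0299), with TranspCtrl replicate 1 at 50.7 CPM below the 90.7 and 89.5 CPM of its group, and the call was lost when any TranspExer sample was left out.

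**Figure D4:**
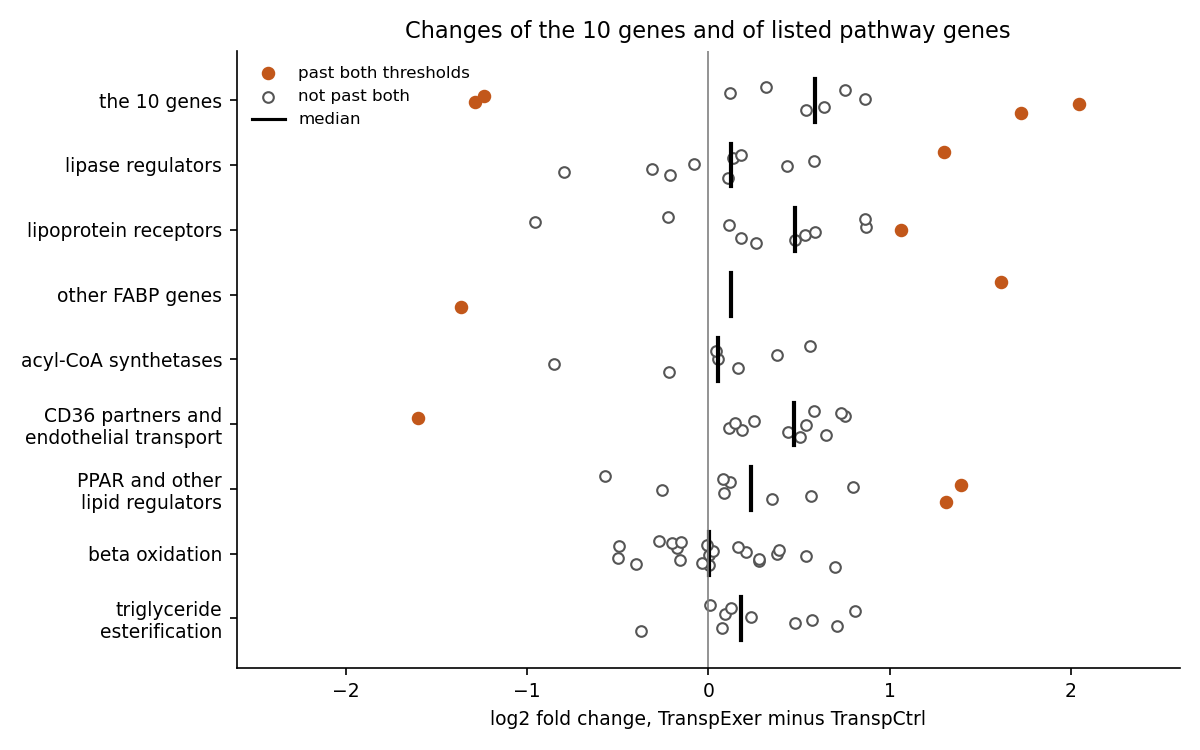
Log2 fold change, TranspExer minus TranspCtrl (horizontal axis), of the 10 genes (top) and of the tested genes of 8 pathway lists. Each point is a gene, filled where it was past both thresholds, and the black line is the median. The lipoprotein receptors have a median of 0.48 and the beta oxidation genes one near 0.

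Markers of other cell types also differed between the groups, in both directions. Of 9 endothelial markers, 9 rose at the adjusted p-value and 7 past both thresholds, with a median log2 fold change of 1.55, and their summed level was 198 to 247 CPM in TranspCtrl and 655 to 718 CPM in TranspExer. *Cdh5* rose from 70.2 to 284 CPM and *Pecam1* from 71.6 to 131 CPM (adjusted p = 0.00023 and 0.000121 from edgeR). GPIHBP1, CD36, FABP4 and the VLDL receptor are all known in endothelium, and *Gpihbp1* was higher by 0.54 where the median endothelial marker was higher by 1.55. The part of endothelial cells in the members' changes was not tested.

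Of 8 macrophage markers, 1 rose and 2 fell at the adjusted p-value, 1 of these past both thresholds, with a median of 0.07. *Marco*, a scavenger receptor, fell from 16.3 to 6.38 CPM (adjusted p = 0.00507), and *Mrc1*, the mannose receptor, from 683 to 544 CPM (adjusted p = 0.0159). *Csf1r* was at 882 and 928 CPM (adjusted p = 0.511), while *Cd68*, a lysosomal glycoprotein, rose from 479 to 823 CPM (adjusted p = 0.000377). Adipocyte markers summed to 6.51 to 8.21 CPM in TranspCtrl and 10.4 to 13.6 CPM in TranspExer. *Retn* and *Lep* had 0 counts in every sample, which allows up to 0.174 CPM, *Cidec* and *Cfd* had means of at most 0.0155 and 0.0174 CPM, *Plin4* was at 6.41 and 9.18 CPM (adjusted p = 0.056), and *Adipoq* was at 0.813 and 1.02 CPM (adjusted p = 0.414). *Plin1*, the coat protein of adipocyte lipid droplets, went from 0, 0 and 3 counts to 25, 34 and 31 counts. The change of *Plin1* was past both thresholds (adjusted p = 0.00146 from edgeR). The part of adipocytes in the members' changes was not tested.

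Marrow stromal markers had a median of -0.35, with 2 of 10 higher and 5 lower at the adjusted p-value, and 1 higher and 2 lower past both thresholds. *Eng* rose from 51.8 to 167.5 CPM, while *Pdgfra* fell from 112 to 55.8 CPM and *Nt5e* from 7.21 to 3.43 CPM. *Col1a1* was at 8042 and 7222 CPM (adjusted p = 0.674) and *Cxcl12* fell from 1396 to 1016 CPM (adjusted p = 0.0051). TranspCtrl replicate 1 had the lowest stromal sum, 6490 CPM beside 12200 and 11700, and the highest B and plasma cell sum, 5930 CPM beside 3520 and 3740. Most of each difference lay in a single gene. *Col1a1* was at 4560, 9950 and 9610 CPM in TranspCtrl replicates 1, 2 and 3, and *Ighm* at 4030, 1920 and 2100 CPM. In TranspExer the B and plasma cell markers summed to 767 to 815 CPM, with 6 of 7 lower past both thresholds, among them *Ighm* (2687 and 231 CPM) and *Jchain* (1345 and 276 CPM). Neutrophil markers summed to 2640 to 3690 and 4880 to 5120 CPM, the granule genes *Mpo* and *Elane* being the 2 past both thresholds, with *Ngp* at 1357 and 1962 CPM and *S100a9* at 939 and 897 CPM. At the adjusted p-value, 3 of the 7 neutrophil markers rose and 1 (*Ly6g*) fell. Megakaryocyte markers summed to 257 to 316 and 474 to 506 CPM, with 3 of 5 higher past both thresholds and a median log2 fold change of 1.26. Among them *Ppbp* rose from 78.9 to 188 CPM, whereas *Pf4* was at 152 and 154 CPM (adjusted p = 0.948). T cell markers summed to 57.8 to 59.0 and 60.1 to 67.6 CPM, of which *Cd4* held most, rising from 41.0 to 52.4 CPM (adjusted p = 0.0111). The other 5 of the 6 T cell markers were lower in TranspExer, with a median log2 fold change of -0.60 over the list. *Lck* fell by 0.70 on the log2 scale (adjusted p = 0.00721), and *Cd3d* fell by 1.83 (adjusted p = 0.0208), past both thresholds. No erythroid marker, *Hba-a1* and *Hba-a2* included, passed the filter. The part of these cells in the members' changes was not tested.

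**Figure D5:**
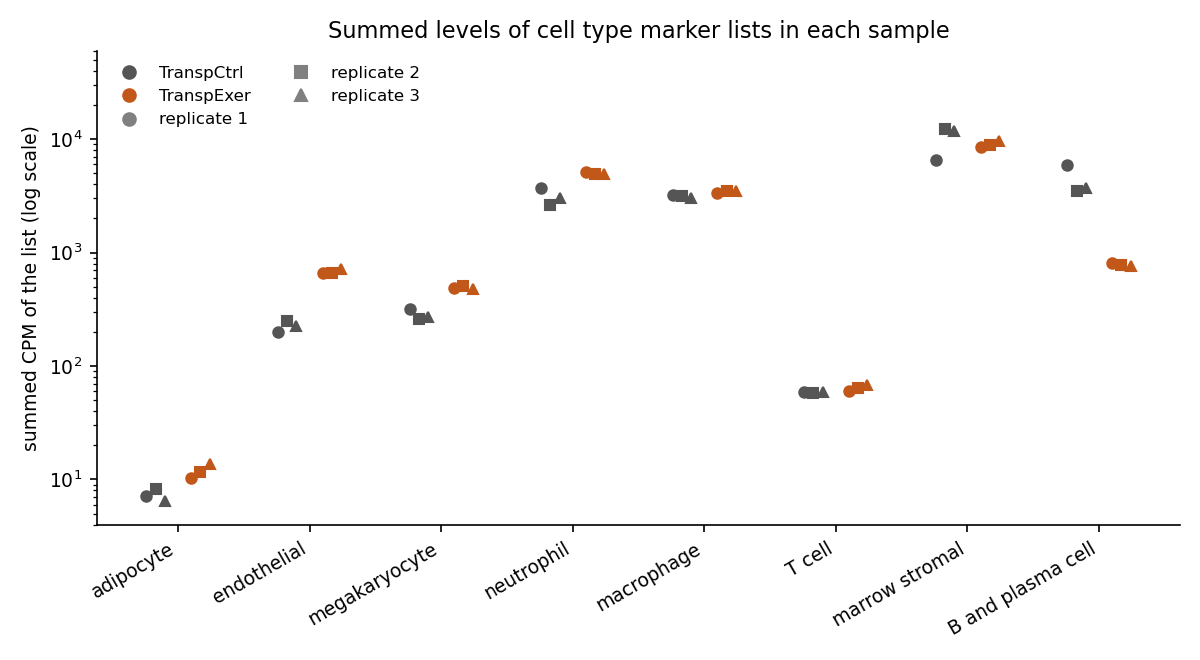
Summed CPM of each marker list (vertical log axis) in the 3 TranspCtrl samples (grey) and the 3 TranspExer samples (orange). Endothelial and megakaryocyte sums lie higher in every TranspExer sample and B and plasma cell sums lower, and adipocyte sums are at most 13.6 CPM.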

How the data were processed

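The values the authors deposited were estimated counts of reads per gene, not normalized, for 6 samples, with a length per gene. The labels name mm10 as the genome build, and the aligner, counting tool and annotation are not given in the sources used here. For the libraries, a stranded mRNA kit is given in the labels but a TruSeq kit in the study's methods. Counts were rounded and tested with edgeR 4.0.16 in R 4.3.3 (filterByExpr, TMM factors, quasi-likelihood test without covariates), with Benjamini-Hochberg adjustment over 15190 genes. CPM used TMM-scaled library sizes. Levels per kilobase used the longest protein-coding transcript of GENCODE M21 (GRCm38, the same assembly as mm10), in which 52073 of 56980 gene identifiers were found and no member overlapped another gene. TMM factors ran from 0.967 to 1.08.

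The members and gene lists were chosen with earlier results of these data known. From each pathway list, genes past both thresholds were named, or else the gene with the highest mean, and from each marker list the 2 genes with the highest mean. *Apoc2*, *Lmf1*, *Apoe*, *Scarb1*, *Lrp1*, *Cav1*, *Cav2*, *Lyn*, *Rxra*, *Cebpa*, *Acsl3*, *Acsl1*, *Cpt1a*, *Acadm*, and the markers *Marco*, *Mrc1*, *Ly6g*, *Cd3d*, *Elane*, *Mpo*, *Plin1*, *Retn*, *Lep*, *Cidec*, *Cfd*, *Eng*, *Pdgfra* and *Nt5e* were named after their values were seen. *Sdc1* is in both the lipase and the B and plasma cell list.

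The alternatives were DESeq2 1.42.0, upper-quartile and library-size scaling, other low-count filters, a fold of 2 as the tested hypothesis, the replicate number as a block, each sample left out in turn, and other transcript lengths, of which the deposited length, ratios under other lengths, and the counts of each list under each setting were added after seeing the data. The tests were checked on simulated data without a deviating sample, so this check does not cover samples like TranspCtrl replicate 1. With 3 samples a group, 0.1 is the smallest p-value of a two-sided exact permutation test of 1 gene, so tests rest on the variance shared across genes.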

Additional observations from a re-analysis of the deposited data

How the results depend on the processing

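*Cd36*, *Lpl* and *Vldlr* stayed past both thresholds in their direction under 12 settings and also when a fold of 2 was itself the tested hypothesis. In that last test, 1 member was lower (*Vldlr*), 3 listed pathway genes were higher (*Lipa*, *Nr1h3*, *Pparg*) and 0 lower, and 138 genes of the whole table were higher and 274 lower. With a minimum count of 30, 0 listed pathway genes were lower, *Mfsd2a* and *Fabp3* no longer being called. With 1 sample left out in turn, members higher at the adjusted p-value numbered 3 (without TranspExer replicate 1 or 2) to 7 (without TranspCtrl replicate 1) and listed pathway genes lower past both thresholds 1 to 2. The change of *Slc27a4* reversed to -0.012 without TranspCtrl replicate 1, with a range of -0.012 to 0.21 over the left-out samples, and without that sample *Fabp4* passed both thresholds, making 3 members higher. Upper-quartile and library-size scaling each left 4 members higher at the adjusted p-value, without *Gpihbp1* and *Fabp4*, and 4 listed pathway genes higher past both thresholds, without *Sort1*. Scaling by library size alone lowered the median log2 fold change by 0.09, so changes near 0 are relative to the scaling. Same-numbered samples did not deviate together (correlations of 0.02, -0.00167 and 0.04, beside -0.08 to 0.07 for other pairings). These correlations cannot show whether the numbers pair the samples. A fit with the replicate number as a block gave 2 and 2 members past both thresholds, 6 and 2 at the adjusted p-value, and 519 and 767 of all genes. Low counts limit the precision for *Gpihbp1* (98 to 159 a sample), *Slc27a3* (40 to 134), *Fabp7* (24 to 107), *Mfsd2a* (7 to 38) and *Fabp3* (5 to 35).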
